A study of Mus musculus with 6 samples.

Results

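An alternative splice acceptor node is the stretch of exon between an upstream and a downstream 3′ splice site of the same exon, and its percent spliced in (psi, a fraction from 0 to 1) is the share of transcripts that keep the stretch. The nodes described here were those of the deposited node type AA with 20 or more reads in all 6 libraries. There were 4056 such nodes in 2806 genes, of 9389 AA nodes and 444929 nodes of all types, and 857 genes held more than 1 of them. Nodes of 1 gene share their reads and are not independent of each other.

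The libraries came from a mouse aortic endothelial cell line (Fn AB+/-) immortalised with SV40 under doxycycline control, and there was 1 library for each of 6 groups, with no replicates. Rescue was the KO line with a human PTBP1 cDNA added, KO was a line grown from a single cell after CRISPR deletion of Ptbp1, and WT was the line without that deletion. Each was sequenced with 30 ng/mL TNFalpha and without it. All groups had been expanded with 2 ug/mL doxycycline and then moved to medium without it, and Rescue and KO share the clone. File names and sample labels gave different groups for 4 of the 6 libraries. Groups below are those of the file names, and "basal" in them was taken as WT. The library named Rescue with TNF was also labelled so, and that named Rescue was labelled KO with TNF. The library named KO with TNF was labelled WT with TNF, and that named KO was labelled Rescue. The library named WT with TNF was labelled KO, and that named WT was also labelled so. Every direction below rests on the file names.

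The deleted gene and its reporter were read first. Ptbp1 was at 78.3 TPM with TNF and 80.6 TPM without in the libraries named Rescue, 219.3 and 211.8 TPM in those named KO, and 198.4 and 179.9 TPM in those named WT. The labels do not say which bases were deleted, so the level of this RNA does not check the genotype. Ptbp2, the paralogue that Ptbp1 represses, was at 41.5 and 37.6 TPM in the libraries named Rescue, 83.6 and 104.5 TPM in those named KO, and 23.2 and 29.1 TPM in those named WT. It was highest in both libraries named KO. Ccl2, a TNF target, was at 3793 TPM with TNF and 121.2 TPM without in the libraries named Rescue, 864.6 and 70.1 TPM in those named KO, and 4699 and 108.5 TPM in those named WT. Each library named TNF thus exceeded its partner. Under the labels, WT and Rescue rose with TNF as well, but KO did not. The labels' KO was at 121.2 TPM with TNF and 4699 TPM without. Vcam1 went the same way, at 41 TPM with TNF and 817.6 TPM without in the labels' KO. Of 12 endothelial markers, 9 were under 1 TPM in every library, Pecam1 and Cdh5 among them, and the summed level of the list was 130.1 to 179.3 TPM. Eng, at 123.2 to 173.9 TPM, made up most of that sum, and Egfl7 was at 1.8 to 7.3 TPM. Most of the markers on the list for the labelled cell type were thus near 0. The summed level of 13 smooth muscle and fibroblast markers was 3537 to 8421 TPM. Col1a1 at 1612 to 3855 TPM, Col1a2 at 854.9 to 2674 TPM and Acta2 at 697.8 to 1402 TPM made up most of it. Other members were low, with Myh11 at 0 to 0.3 TPM, Lum at 0.1 to 9 TPM and Dcn at 0.7 to 78.2 TPM. Thy1 was at 0.4 and 0.6 TPM in the libraries named Rescue, 0 and 0.3 TPM in those named KO, and 37.7 and 82.7 TPM in those named WT. Differences between clones and the deletion cannot be told apart, and their part in the results was not tested. Reads over all nodes were 54227743 to 61282859 per library, and a member had a median of 98.3 to 111 reads.

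The 3′ splice site is read in steps. U2AF and its partners bind a pyrimidine-rich tract and the AG dinucleotide that ends the intron, and where a second AG lies close by, either can be joined to the upstream exon. Ptbp1 binds pyrimidine-rich RNA, including tracts before exons, and mostly represses the exons that follow. A shift between acceptors adds or drops a short stretch of coding sequence, and keeps the reading frame where the stretch is a multiple of the codon length.

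The sequences that carry the results are printed 5′ to 3′ from GENCODE vM21 transcripts. The first set shows tandem acceptors with the AG of the second acceptor inside the node, in capitals, between 20 exon bases on either side. Epn1, Uap1 and Akap11 end in CAG, Pard3 in TAG and Ptov1 in GAG, which are the 3 bases before the downstream acceptor.
Epn1: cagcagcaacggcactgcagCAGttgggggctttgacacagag
Uap1: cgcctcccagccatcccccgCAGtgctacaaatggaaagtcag
Akap11: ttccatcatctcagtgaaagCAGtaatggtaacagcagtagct
Pard3: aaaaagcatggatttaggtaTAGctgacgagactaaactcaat
Ptov1: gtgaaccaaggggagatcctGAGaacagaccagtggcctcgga

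The second set shows short nodes that were called between KO and WT, drawn the same way with the node in capitals.
Strn4: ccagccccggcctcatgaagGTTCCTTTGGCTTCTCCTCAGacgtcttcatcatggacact
Chd3: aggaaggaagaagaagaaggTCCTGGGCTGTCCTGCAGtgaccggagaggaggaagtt
Tent2: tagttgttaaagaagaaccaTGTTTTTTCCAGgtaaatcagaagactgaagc
Cdk8: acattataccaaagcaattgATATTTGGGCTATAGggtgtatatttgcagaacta
Anapc5: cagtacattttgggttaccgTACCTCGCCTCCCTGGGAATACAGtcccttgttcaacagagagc
Map4k4: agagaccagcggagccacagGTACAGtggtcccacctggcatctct
Piezo1: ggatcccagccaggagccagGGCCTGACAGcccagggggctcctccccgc
Kat7: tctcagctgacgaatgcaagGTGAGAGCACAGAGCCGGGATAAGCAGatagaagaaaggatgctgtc

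The third set shows the last 40 bases of longer nodes and the 20 exon bases after them, with the AG before the downstream acceptor in capitals, since these bases hold the tract that the downstream acceptor would use. Pyrimidines made up 25 of the 40 bases in Enah, 26 in Wnk1, 25 in Glmp and 21 in Fam222b. The 192-nt Enah node, called as well and not printed, had 30. Fn1, which was called in no comparison, is shown beside them and had 22. These are counts for single nodes without a background share, and no contrast between called and other nodes is drawn from them.
Enah: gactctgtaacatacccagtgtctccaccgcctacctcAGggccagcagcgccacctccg
Wnk1: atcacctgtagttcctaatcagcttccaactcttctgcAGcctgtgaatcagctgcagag
Glmp: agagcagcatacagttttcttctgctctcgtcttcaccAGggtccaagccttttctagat
Fam222b: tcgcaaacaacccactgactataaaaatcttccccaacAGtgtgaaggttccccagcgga
Fn1: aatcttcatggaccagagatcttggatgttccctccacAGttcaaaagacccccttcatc

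Most acceptor nodes were used nearly always or nearly never. Mean psi over the 6 libraries was under 0.05 for 899 nodes and over 0.95 for 1636, and 1521 (37.5%) lay between. Of 4023 nodes with a sequence and 2 or more bases, 3950 ended in AG. Nodes ran from 1 to 6981 nt, with a median of 28 nt. In GENCODE vM21, 2866 nodes (70.7%) were coding, 367 crossed a coding boundary, 339 lay in a 5′ UTR, 106 in a 3′ UTR and 376 in non-coding transcripts. At the read threshold, 118 nodes whose lowest library had 20 to 21 reads had a median psi of 0.711, and 125 AA nodes just outside it, at 18 to under 20 reads, had 0.650.

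Tandem acceptors 3 nt apart were the most evenly used. They numbered 581, and 75.6% of them had a mean psi of 0.05 to 0.95, against 35.7% of 182 nodes of 4 nt and 29.9% of 1276 nodes of 5 to 30 nt. Their psi followed the 3 bases before the downstream acceptor. Where these were CAG (392 nodes) the upstream acceptor had a median psi of 0.462, and where they were TAG (62 nodes) it had 0.616. Where they were AAG (93 nodes) the median was 0.884, and where they were GAG (28 nodes) it was 1.00. The order held in each library, since the library medians were 0.439 to 0.484 for CAG, 0.543 to 0.637 for TAG, 0.829 to 0.895 for AAG and 1.00 for GAG. As background, GAG is the acceptor triplet least often used in mammals and CAG the most. Ptov1 was 1 of 4 GAG nodes with an intermediate psi, at 0.762 and 0.784 in the libraries named Rescue, 0.665 and 0.606 in those named KO, and 0.779 and 0.636 in those named WT. The share of its junction reads at the upstream acceptor did not follow psi. That share was 0.528 and 0.590 in Rescue, 0.626 and 0.549 in KO, and 0.521 and 0.574 in WT. These are descriptions over nodes, with no test.

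Coding nodes with intermediate psi more often kept the frame. With nodes of 3 nt left out, 49.0% of 682 coding nodes with a psi of 0.05 to 0.95 were a multiple of 3 long, against 39.2% of 1676 coding nodes outside that range. In 5′ UTRs, where no frame is read, the share was 29.3% of 140 intermediate nodes. Lengths differed as well, with medians of 27, 31.5 and 38 nt, so the shares are given as they stand, with no test.

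**Figure D1:**
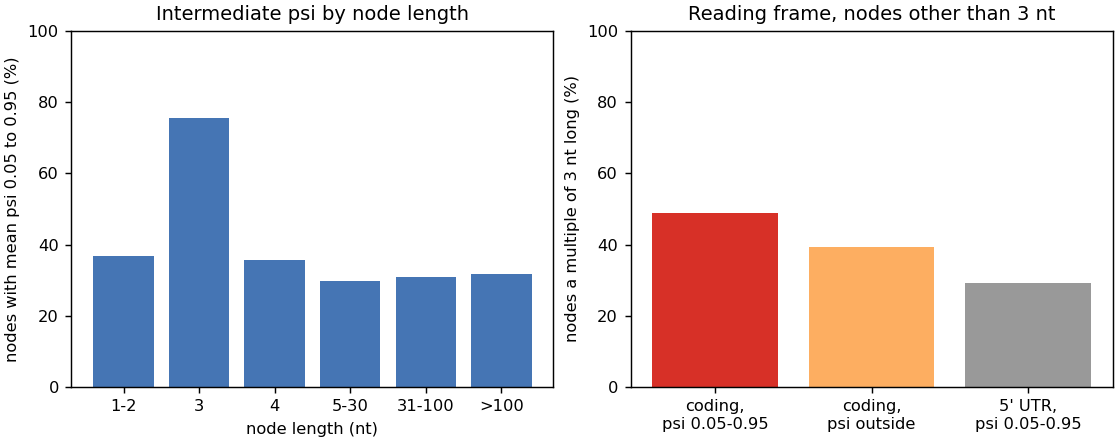
Left, the percentage of nodes of each length class (nt) whose mean psi over 6 libraries was 0.05 to 0.95, which was 75.6% for nodes of 3 nt. Right, the percentage of nodes a multiple of 3 nt long, with nodes of 3 nt left out, which was 49.0% for coding nodes inside that psi range, 39.2% outside it and 29.3% for 5′ UTR nodes inside it.

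Across libraries the acceptor nodes were much alike. Between any pair of libraries, 4.34% to 7.23% of the 1521 intermediate nodes differed by 0.2 or more in psi. The lowest share was between the libraries named Rescue with TNF and Rescue without, and the highest between those named Rescue with TNF and KO. Within a genotype as named, the shares were 4.34% for Rescue, 4.73% for KO and 5.19% for WT. Pairs of a library named KO with one named Rescue or WT ran from 5.59% to 7.23%, and pairs of a library named Rescue with one named WT from 4.41% to 5.92%. Pairs across KO and another genotype thus reached higher shares, and the ranges overlapped. With 1 library a group, these shares also hold the difference between any 2 cultures.

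**Figure D2:**
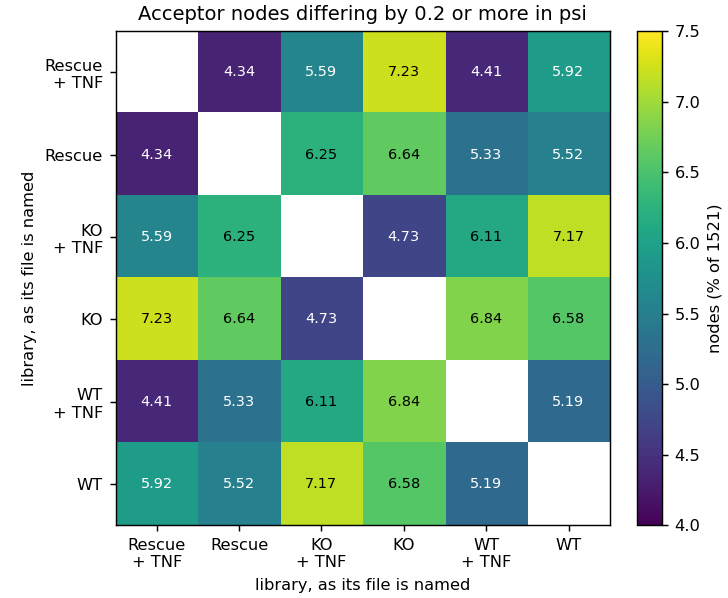
Each cell gives the percentage of 1521 acceptor nodes that differed by 0.2 or more in psi between a pair of libraries, placed by file name on both axes. The pair named Rescue with and without TNF had the lowest share, 4.34%, and the 8 cells between KO and the other genotypes, counted once, held 5.59% to 7.23%.

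The comparison of KO with WT asks which acceptors depend on Ptbp1. A small set of acceptor nodes differed, with both directions present. Upstream acceptors were used more in KO for Tpm2, Strn4, Chd3, Fam222b and Enah, and less for Akap11. For others, among them Wnk1, Piezo1 and Kat7, the whole exon was spliced in more or less often and the node moved with it. In Wnk1, too few junction reads at the acceptors in at least 1 library left the choice between them unmeasured. These statements rest on a fit that was added after seeing the data. The fit over all node types, with limma on the log2 odds of psi weighted by reads and an additive model of genotype and TNF, called 0 of 1521 acceptor nodes at a Benjamini-Hochberg adjusted p of 0.05 and a psi difference of 0.1, with 87 at an unadjusted p under 0.05. It called 0.0% of all 26444 nodes tested. edgeR's quasi-likelihood test over all node types also called 0, with 67 acceptor nodes at an unadjusted p under 0.05. The same limma fit on the 7974 internal splice nodes alone (cassette exon, acceptor, donor and retained intron) called 28 acceptor nodes in 25 genes, 17 higher and 11 lower in KO. The background was 4.06% of all internal nodes (2.36% higher and 1.71% lower), and acceptor nodes at 1.84% lay under it, against 7.41% of 3430 cassette exon nodes. edgeR on the internal nodes called 5, in Tpm2, Wnk1, Chd3, Enah and Glmp, all of them among the 28. In limma fits on internal nodes that each left out 1 library, 6 of the 28 were called every time, in Chd3, Enah, Glmp, Map4k4, Tpm2 and Wnk1, and the others lost their call in at least 1 fit. The 2 residual degrees of freedom measure how unequal an effect was between treatments or genotypes. limma also drew each node's variance towards those of the other nodes in the fit. That shared variance weighed 1.03 degrees of freedom over all node types and 10.8 on internal nodes. Its part in the difference between 0 and 28 calls was not tested. Neither source is a spread between replicate cultures, so the p-values do not measure one. With the groups that the labels give, no fit called any acceptor node: limma on internal nodes had 31 and edgeR 25 at an unadjusted p under 0.05. By size alone, with no test, 98 of 1521 acceptor nodes (6.44%) differed by 0.1 or more the same way with TNF and without, against 9.08% of internal nodes. Under the labels' groups 62 did, against 3.39% of internal nodes.

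Tpm2, beta-tropomyosin, which binds along actin filaments, had the largest difference. Its node is the 162-nt stretch at the upstream acceptor of the last exon (GRCm38 chr4:43515842-43516003, minus strand, across a coding boundary). Psi was 0.281 with TNF and 0.294 without in the libraries named Rescue, 0.923 and 0.937 in those named KO, and 0.166 and 0.178 in those named WT. Both libraries named KO stood far above the other 4, and the groups did not overlap. The 95% exact binomial intervals, which cover counting error only, were 0.911 to 0.934 with TNF and 0.927 to 0.946 without in KO, and 0.138 to 0.197 and 0.154 to 0.204 in WT. Junction reads moved alike: those ending at the upstream and at the downstream acceptor numbered 955 and 66 with TNF and 1122 and 59 without in KO, against 62 and 441 with TNF and 106 and 641 without in WT. The psi difference was 0.758 (limma, log2 odds 6.0 ± 0.14 SE, adjusted p = 3.19e-11 on internal nodes and 0.294 over all node types). The Tpm2 gene itself was at 323.5 and 372.2 TPM in KO and 255 and 393 TPM in WT, which overlap.

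In 10 of the 28 called nodes, Tpm2 among them, the share of acceptor reads at the upstream acceptor moved by 0.1 or more the same way as psi. Strn4, a scaffold of the striatin phosphatase complex, has a 21-nt coding node (chr7:16831465-16831485, plus strand) with psi of 0.295 and 0.356 in the libraries named Rescue, 0.692 and 0.567 in those named KO, and 0.252 and 0.227 in those named WT, each with TNF first. Its junction reads at the upstream and downstream acceptor were 62 and 30 with TNF and 38 and 30 without in KO, against 18 and 66 with TNF and 10 and 47 without in WT. The groups did not overlap, and psi rose by 0.390 (limma adjusted p = 0.00196). Chd3, a chromatin remodeller of the NuRD complex, has an 18-nt coding node (chr11:69361225-69361242, minus strand) at 0.210 and 0.177 in Rescue, 0.50 and 0.485 in KO, and 0.162 and 0.137 in WT. Its KO libraries stood above the other 4, and psi rose by 0.343 (limma adjusted p = 0.000103). In Chd3 the reads at the upstream and downstream acceptor were 45 and 46 with TNF and 50 and 60 without in KO, against 25 and 145 with TNF and 30 and 204 without in WT.

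Enah, an actin regulator of the Ena/VASP family, carried a long alternative stretch. Its 540-nt coding node (chr1:181921961-181922500, minus strand) had a psi of 0.116 and 0.085 in the libraries named Rescue, 0.393 and 0.295 in those named KO, and 0.029 and 0.047 in those named WT. Reads at the upstream and later acceptors were 28 and 26 with TNF and 25 and 42 without in KO, against 8 and 154 with TNF and 5 and 83 without in WT. The KO libraries stood above the other 4, and psi rose by 0.306 (limma adjusted p = 0.00126). A second Enah node of 192 nt next to it was also called, and shares the same transcripts. Fam222b has a 112-nt coding node (chr11:78153697-78153808, plus strand) at 0.532 and 0.422 in Rescue, 0.742 and 0.726 in KO, and 0.360 and 0.467 in WT, a rise of 0.321 (limma adjusted p = 0.0102). Tent2, a cytoplasmic poly(A) polymerase, has a 12-nt node at 0.346 and 0.446 in Rescue, 0.651 and 0.730 in KO, and 0.352 and 0.566 in WT, and psi rose by 0.232 (limma adjusted p = 0.0369). In both genes the KO libraries lay above the other 4. Cdk8, a kinase of the Mediator complex, has a 15-nt node at 0.758 and 0.687 in Rescue, 0.784 and 0.883 in KO, and 0.551 and 0.626 in WT, and rose by 0.245 (limma adjusted p = 0.0284). It was the only one of the 10 in which the share of reads skipping the exon also moved by 0.1 or more.

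Upstream acceptors used less in KO were few. Akap11, an anchor of protein kinase A, has a 3-nt node (chr14:78503023-78503025, minus strand) at 0.245 and 0.117 in the libraries named Rescue, 0.147 and 0.044 in those named KO, and 0.390 and 0.304 in those named WT. The KO and WT libraries did not overlap, while a library named Rescue lay between those named KO. Psi fell by 0.251 (limma adjusted p = 0.0435), and reads at the upstream and downstream acceptor were 5 and 55 with TNF and 1 and 46 without in KO, against 22 and 40 with TNF and 17 and 40 without in WT.

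In 8 of the 28 called nodes, outside the 10 above, the share of junction reads that skipped the whole exon moved by 0.1 or more. In 5 of these the share of acceptor reads at the upstream acceptor moved by less than 0.1. Kat7 and Piezo1 are among the 5, but none of their reads ended at a later acceptor in any library. Their share was thus 1 throughout and could not show a move. In 3, Wnk1, Cenpx and Pard3, at least 1 library had fewer than 10 acceptor reads, so the choice between acceptors was not measured. Wnk1, a kinase that controls ion cotransporters, has a 330-nt coding node (chr6:119953903-119954232, minus strand) at 0.273 and 0.141 in Rescue, 0.642 and 0.510 in KO, and 0.171 and 0.083 in WT. Reads skipping the exon made up a share of 0.470 with TNF and 0.640 without in KO, against 0.922 with TNF and 0.976 without in WT. Reads at the upstream and downstream acceptor were 79 and 17 with TNF and 57 and 15 without in KO, against 9 and 3 with TNF and 3 and 1 without in WT. The KO libraries stood apart in skipping, and psi rose by 0.449 (limma adjusted p = 6.48e-06). Piezo1, a mechanically gated ion channel, has a 10-nt node (chr8:122489617-122489626, minus strand) at 0.672 and 0.727 in Rescue, 0.372 and 0.428 in KO, and 0.579 and 0.556 in WT. All its acceptor reads ended at the upstream acceptor, at 89 and 97 reads in KO against 109 and 108 in WT, while reads skipping it were 180 and 149 in KO against 94 and 97 in WT. The KO libraries were the lowest of the 6, and psi fell by 0.168 (limma adjusted p = 0.00917). Kat7, a histone acetyltransferase, fell by 0.193 (limma adjusted p = 0.0341), with psi of 0.749 and 0.700 in Rescue, 0.567 and 0.554 in KO, and 0.725 and 0.782 in WT. Map4k4, Tmem179b and Cenpx rose, and Uap1 and Pard3 fell, with a move in the same skipping share. Their differences ran from 0.177 in Map4k4 to 0.383 in Tmem179b among those that rose, and Uap1 fell by 0.267 and Pard3 by 0.442. Pard3, a polarity protein, rested on 20 to 47 reads a library.

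In 9 of the 28, with 10 or more acceptor reads in every library, neither share moved by 0.1. Glmp, a lysosomal membrane glycoprotein, has a 254-nt node (chr3:88325677-88325930, plus strand) at 1.00 and 1.00 in Rescue, 0.583 and 0.529 in KO, and 1.00 and 0.997 in WT. Its KO libraries stood well below the other 4, and psi fell by 0.443 (limma adjusted p = 0.000946). Junction reads at its upstream and downstream acceptor were 352 and 2 with TNF and 293 and 5 without in KO, against 371 and 2 with TNF and 224 and 1 without in WT, so these reads did not show the difference. Psma3, a proteasome subunit, was called because psi was 0.432 in the library named WT with TNF, against 0.812 to 0.894 in the other 5. Its junction reads in that library were 161 and 17, which is a share like that of the others. The other nodes of this kind lay in Sept11, Celf1, Gpr137, P3h3 and Zdhhc8, and in the second nodes of Anapc5 and Enah. The second node of Cdk8 had too few acceptor reads in at least 1 library to be placed. Over all 1100 acceptor nodes with 20 or more acceptor reads in every library, 120 differed by 0.1 or more in psi, and 73 of these did so the same way in the share of acceptor reads.

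**Figure D3:**
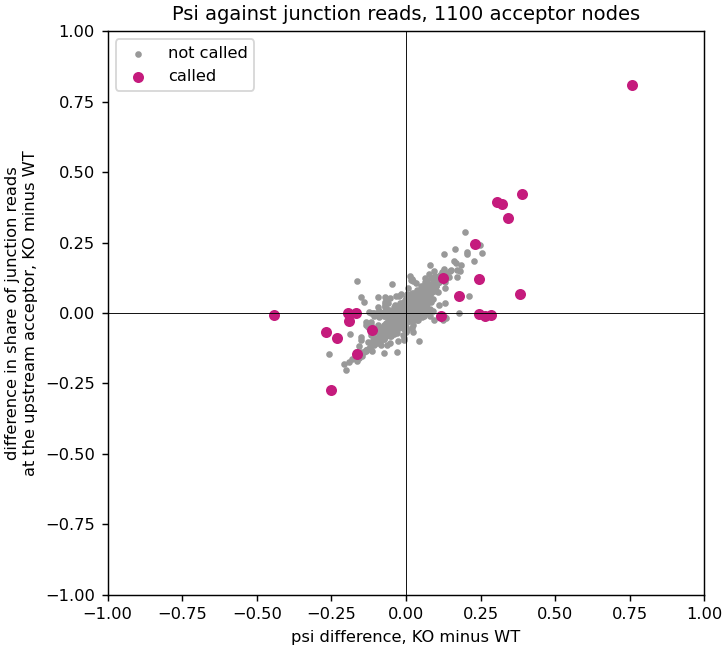
Each point is 1 of 1100 acceptor nodes with 20 or more acceptor reads in every library, placed by its psi difference (KO minus WT, horizontal) and the difference in the share of junction reads at the upstream acceptor (vertical). Of the 23 called nodes in the plot, Tpm2 lies highest at 0.758 and 0.810, and Glmp lies on the horizontal line at -0.443.

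The called nodes shared few features that the choice did not use. Of the 28, 23 were coding (82.1%, against 70.35% of the 1521 tested), and 19 were a multiple of 3 long (67.9%, against 58.3%). Both libraries named KO lay outside the other 4 for 25 of the 28, and over all internal nodes that held for 23.3%. That count used the contrast that called them and is a description. Among the 12 called nodes of 30 nt or more, the last 30 bases had a median of 66.7% pyrimidines, against 60% in 608 tested nodes of that length. On the transcript strand, CTCTCT stood in these 30 bases of 2 of the 12, against 3.95% of the 608. TTCTCT, which can overlap it, stood in 1, against 4.93%. TCTT, which TTCTCT does not hold, stood in 5 of the 12, against 29.9%. The bases of introns before upstream acceptors were not used here.

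The comparison of Rescue with KO asks whether human PTBP1 returns the acceptors to their WT use. Of the 28 nodes called between KO and WT, the Rescue mean lay between KO and WT for 22 and past the WT mean for 6, and it was nearer to WT for 21. These comparisons share the KO libraries, so the counts are given side by side and not as independent evidence. The 28 were chosen for a difference between KO and WT, and a Rescue mean nearer to WT can follow from that choice alone. The same counts were not made over all tested nodes, so these do not answer the question. The limma fit over all node types called 0 acceptor nodes, with 79 at an unadjusted p under 0.05, and edgeR also called 0, with 68. On internal nodes, limma called 24 acceptor nodes, 9 higher and 15 lower in Rescue, where the background was 3.3% (1.61% higher and 1.69% lower), and edgeR called 6. Of the 24, 14 were among the 28. By size alone, 106 acceptor nodes differed by 0.1 or more the same way with TNF and without, against 8.94% of internal nodes, and under the labels' groups 46 did, against 3.24%.

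Tpm2 fell by 0.643 in Rescue against KO (limma adjusted p = 2.29e-10), with the values given above, in which the Rescue libraries stood near those named WT. Wnk1 fell by 0.369 (limma adjusted p = 0.000247) and Chd3 by 0.299 (limma adjusted p = 0.00118), and neither overlapped between the groups. Piezo1 rose by 0.300 (limma adjusted p = 0.000123), and its Rescue libraries lay above those named WT as well. Anapc5, a subunit of the anaphase-promoting complex, differed from this pattern. Its 24-nt node (chr5:122800609-122800632, minus strand) was at 0.558 and 0.541 in Rescue, 0.524 and 0.586 in KO, and 0.452 and 0.411 in WT. Rescue and KO overlapped, and both lay above WT. The difference between Rescue and KO was -0.0055 (limma adjusted p = 0.966), and that between KO and WT was 0.124 (limma adjusted p = 0.0274). Rescue and KO share a clone.

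Some nodes were called between Rescue and KO alone. Hdac10, a deacetylase, has a 175-nt non-coding node at 0.698 and 0.579 in Rescue, 0.229 and 0.211 in KO, and 0.425 and 0.450 in WT, so Rescue lay above WT and KO below it. Psi rose by 0.419 (limma adjusted p = 0.00934). Aph1a, a subunit of gamma-secretase, has a 136-nt coding node at 0.841 and 0.919 in Rescue, 0.987 and 0.993 in KO, and 0.963 and 0.993 in WT. Its Rescue libraries were the lowest, and psi fell by 0.110 (limma adjusted p = 0.00919). The share of Aph1a acceptor reads at the upstream acceptor was 0.951 to 1.00 over the 6 libraries. Reads skipping the exon made up a share of 0.076 with TNF and 0.122 without in Rescue, against 0.011 and 0 in KO and in WT. Whether the KO and WT contrasts of these nodes differ from those of Tpm2 or Wnk1 was not tested.

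**Figure D4:**
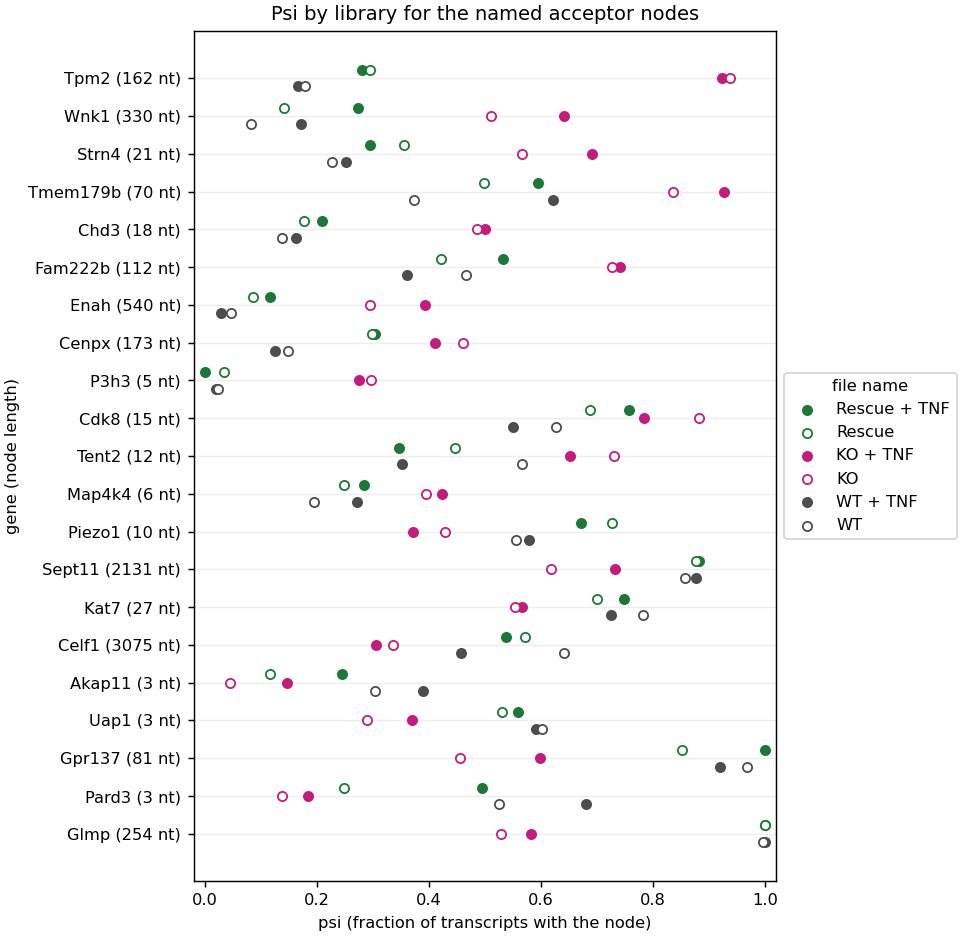
Psi (horizontal) of 21 named acceptor nodes called between KO and WT, 1 row per gene with its node length, in the 6 libraries as their files are named (filled points with TNF, open points without). Both KO points of Tpm2 lie at 0.923 and 0.937, above all other libraries, and both KO points of Glmp lie below them at 0.583 and 0.529.

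Between Rescue and WT, few acceptor nodes were called. The limma fit over all node types called 0, with 60 at an unadjusted p under 0.05, and edgeR called 0, with 37. On internal nodes limma called 3, where the background was 0.414%, and edgeR called 0. Tpm2 was 0.116 higher in Rescue (limma adjusted p = 0.00609). Smurf1, a ubiquitin ligase, has a 9-nt node at 0.331 and 0.487 in Rescue, 0.542 and 0.588 in KO, and 0.616 and 0.638 in WT, and was 0.218 lower in Rescue than in WT (limma adjusted p = 0.0482). Canx, a chaperone of the endoplasmic reticulum, has a 4-nt 5′ UTR node at 0.580 and 0.648 in Rescue, 0.638 and 0.910 in KO, and 0.890 and 0.906 in WT (difference -0.284, limma adjusted p = 0.0131). Its junction reads at the upstream and downstream acceptor were 165 and 32 with TNF and 175 and 24 without in Rescue, against 191 and 26 with TNF and 134 and 15 without in WT, so the acceptor reads differed far less than psi. By size alone, 69 acceptor nodes (4.54%) differed by 0.1 or more the same way with TNF and without, against 4.55% of internal nodes, and under the labels' groups 63 did, against 2.61%.

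TNF left acceptor choice without a call. The limma fit over all node types called 0 acceptor nodes, with 47 at an unadjusted p under 0.05, and edgeR called 0, with 32. On internal nodes limma called 0 as well, with 108 at an unadjusted p under 0.05, where the background was 0.0627%, and edgeR called 0, with 67. By size alone, 14 acceptor nodes (0.92%) differed by 0.1 or more the same way in 3 of 3 genotypes, against 1.04% of internal nodes, and under the labels' groups 16 did, against 0.815%. Nodes of Sept8 and Ddx17 passed the p threshold and not the difference of 0.1. Sept8, a septin, was chosen after its values were seen, and its 265-nt node was at 0.961 with TNF and 0.913 without in Rescue, 0.958 and 0.911 in KO, and 0.966 and 0.888 in WT. It was higher with TNF in 3 of 3 genotypes, by 0.0577 on average (limma adjusted p = 0.0316). The share of its acceptor reads at the upstream acceptor was 0.9775 to 0.9965 over the 6 libraries. Reads skipping the exon made up a share of 0.0207 to 0.0337 with TNF and 0.0678 to 0.0716 without. Ddx17, an RNA helicase, also chosen after its values were seen, was at 0.337 and 0.411 in Rescue, 0.342 and 0.447 in KO, and 0.421 and 0.506 in WT for its 1296-nt node, lower with TNF in 3 of 3 genotypes by 0.088 on average (limma adjusted p = 0.0391). Only 6 to 20 of its reads a library ended at the upstream acceptor, against 285 to 376 at later ones. Its psi was thus far above the share of acceptor reads.

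Few acceptor nodes of the gene lists were tested, and calls between KO and WT made up 1.84% of tested acceptor nodes and 4.06% of internal nodes, so lists of this size say little. Of 47 splicing regulators, 26 genes held 41 members, and of 23 tested 1 was lower in KO and none higher. That was a 3075-nt 3′ UTR node of Celf1, an RNA-binding protein, at 0.537 and 0.571 in Rescue, 0.305 and 0.335 in KO, and 0.458 and 0.642 in WT (difference -0.230, limma adjusted p = 0.0251), whose acceptor reads moved by under 0.1. Of 7 tested nodes in TNF and NF-kB signalling genes, 0 were called in any of the 4 comparisons. The 2-nt node of Relb was at 0.50 and 0.579 in KO and 0.525 and 0.502 in WT (limma adjusted p = 0.982), and the 3-nt node of Ikbkg at 0.896 and 0.828 in KO and 0.868 and 0.786 in WT (limma adjusted p = 0.764). Of 6 tested nodes in endothelial junction, adhesion and matrix genes, Tpm2 alone was called, and of 5 in acceptor recognition and nonsense-mediated decay genes, 0 were. The median absolute difference between KO and WT was 0.0285, 0.0290, 0.0105 and 0.0225 in the 4 lists in the order given, against 0.0355 over all 1521 tested nodes.

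Fn1, fibronectin, had deep coverage, and was chosen after its values were seen. Its 75-nt coding node (chr1:71597673-71597747, minus strand), printed above, was at 0.883 with TNF and 0.856 without in Rescue, 0.858 and 0.836 in KO, and 0.860 and 0.844 in WT. Reads at the upstream acceptor were 2640 to 5357 a library and those at the later acceptor 199 to 652. The KO and WT libraries overlapped, with a difference of -0.005 (limma adjusted p = 0.680). Rescue was 0.0225 higher than KO (limma adjusted p = 0.0234), under the difference of 0.1 that a call needs. Psi was higher with TNF in 3 of 3 genotypes, by 0.0217 on average (limma adjusted p = 0.054).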

How the data were processed

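RNA libraries were made with a SMARTER kit per the labels' protocols. For each splicing node the authors deposited psi as a fraction and an estimated count of reads behind it, per the file headers. Junction reads are the deposited counts per splice junction, and gene levels are deposited TPM values. The program that made them and its version are not given in the sources used here. The submitters' processing notes name RSEM, whose tables were not used. Exon edges, gene symbols, locations and sequences came from GENCODE vM21, whose build is GRCm38, with 4053 members having a sequence.

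Nodes with 20 or more reads in all 6 libraries and a mean psi of 0.05 to 0.95 were tested with limma 3.58.1 in R 4.3.3, on log2 odds with 0.5 reads added and weights from the reads, with genotype and TNF as additive terms for the 6 libraries and 2 residual degrees of freedom. The variance of each node was moderated towards those of the other nodes in the same fit. A node was called at a Benjamini-Hochberg adjusted p under 0.05 and a mean psi difference of 0.1 or more. The fit over all node types was the planned one. The fit on internal splice nodes, and edgeR 4.0.16 on rounded inclusion and exclusion reads, were added after seeing that it made no call, and the nodes named come from that limma fit. Nodes named were the 12 largest called in each direction that differed by 0.1 or more with TNF and without, called members of 4 gene lists, called nodes of 3 nt, and, for other comparisons, called nodes chosen after their values were seen. The members and lists were chosen with earlier results of these data known. Acceptor shares used junctions ending at the upstream acceptor over these and junctions that pass over the node to a later acceptor of the exon, and the share was taken as measured in a called node where every library had 10 or more such reads, which held for 24 of the 28. Intervals are exact binomial at 95% and cover counting error only. Counts cover every node, and the values of some nodes are not reported here. The code was tested on simulated data, and many of the nodes changed there were not called. A count of 0 calls thus does not show that nothing differed. A search of intron bases was planned and not run, and exon bases of the nodes were used in its place.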

Additional observations from a re-analysis of the deposited data

How the results depend on the processing

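No paired analysis was possible because the labels give no replicate numbers to pair by, with 1 library a group. The additive model itself compares genotypes within a treatment and TNF within a genotype. Over all node types, counts of called acceptor nodes were 0 in the 4 comparisons under the labels' groups, 50 reads, no filter on mean psi, a pseudocount of 2 reads, a difference of 0.2 and edgeR. With psi unweighted they were 1 for KO against WT and 1 for Rescue against KO, and on internal splice nodes alone 28, 24 and 3, with Rescue against WT last. They were also 0 in each fit that left out 1 library. Alternatives on internal nodes were chosen after seeing the data. There, KO against WT had 28 calls, and 0 under the labels' groups, 7 with psi unweighted, 17 with 50 reads, 0 with no filter on mean psi, 5 with edgeR and 0 with edgeR under the labels' groups. Rescue against KO had 24, and 0, 4, 16, 0, 6 and 0 under the same settings. Rescue against WT had 3, and 0, 0, 1, 0, 0 and 0, and 1 with a pseudocount of 2 reads. Without 1 library each the counts were 16 to 35 for KO against WT, 12 to 40 for Rescue against KO, 5 to 10 for Rescue against WT and 0 to 3 for TNF. The fewest KO against WT calls, 16, came without the library named KO with TNF, and 18 without that named KO. Of the 28 nodes, 6 were called whichever library was left out: Chd3, Enah (540 nt), Glmp, Map4k4, Tpm2 and Wnk1. By size alone, 98 nodes differed between KO and WT and 106 between Rescue and KO, against 62 and 46 under the labels' groups.

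The labels' groups reversed 26 of the 28 differences of KO minus WT, which in those reported here came to 0.028 in Akap11, -0.086 in Cdk8, -0.0895 in Cdk8, 0.041 in Celf1, -0.0665 in Cenpx, -0.149 in Chd3, -0.163 in Enah (540 nt), -0.134 in Enah (192 nt), -0.213 in Fam222b, 0.21 in Glmp, 0.103 in Gpr137, 0.038 in Kat7, -0.0485 in Map4k4, -0.123 in P3h3, 0.11 in Pard3, 0.189 in Piezo1, -0.243 in Psma3, 0.082 in Sept11, -0.155 in Strn4, -0.209 in Tent2, -0.0895 in Tmem179b, -0.321 in Tpm2, 0.0745 in Uap1, -0.206 in Wnk1 and 0.0745 in Zdhhc8. Junction reads in place of psi reversed 6, to -0.00944 in Anapc5 (15 nt), -0.314 in Cdk8, -0.00673 in Enah (192 nt), -0.00943 in P3h3, 0.05 in Pard3 and -0.00526 in Psma3, where Cdk8 and Pard3 had fewer than 10 acceptor reads in at least 1 library. A further 14 differed from the psi difference by more than the combined counting error of psi, and 7 lay within it. The labels' KO group held the libraries named WT with TNF and Rescue. Their WT group held those named WT and KO with TNF, so the labels' difference subtracted a library named KO. The cause of the changes with junction reads was not tested. Of the 28, 21 lost their call with psi unweighted. Depth limits each psi to the counting error of its node, and 1 library a group leaves the spread between cultures unknown.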
